A study of Mus musculus with 6 samples.

Results

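Fibroblast growth factors (FGFs) are signalling proteins, and 10 genes of FGFs and their receptors are described here in cultured mouse aortic smooth muscle cells that carried either a Bmal1 knockout or the wild-type (WT) gene. The genes were picked by symbol from the 27179 genes of the deposited table. They are 6 ligand genes (Fgf21, Fgf23, Fgf2, Fgf7, Fgf10 and Fgf18), 3 receptor genes (Fgfr1, Fgfr2 and Fgfr3) and the co-receptor gene Kl. They were chosen with their levels in these same libraries already known, so their differences are described below without a test. All 10 passed the filter on low values that the tests of other genes used, which asked for a normalized count of at least 10 in at least 3 of the 6 libraries. Kl met it through the Bmal1 KO libraries alone, and Fgf23 met it through the WT libraries alone. Fgf21 met it through the WT libraries, and of the Bmal1 KO libraries only replicate 3 reached 10 (10.3).

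Most FGFs act close to the cell that makes them. They bind heparan sulfate, a sugar chain of the cell surface and matrix, and pair up receptor tyrosine kinases that signal through the adaptor FRS2 to the kinase ERK. FGF21 and FGF23 bind heparan sulfate weakly and circulate as hormones. They need a klotho protein beside the receptor, beta-klotho (Klb) for FGF21 and alpha-klotho (Kl) for FGF23. FGF21 is known mainly from liver and stressed tissue and FGF23 mainly from bone cells, and FGF23 lowers blood phosphate by acting on the kidney. Klotho and FGF23 are widely studied in vascular calcification.

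The Bmal1 KO group had 3 libraries and the WT group had 3. The cells were primary vascular smooth muscle cells, and both groups had been in the same diabetic-type medium for 7 days, with glucose at 4.5 g/L and hydrogen peroxide at 0.3 mM. Serum was given as 10% for both groups. The comparison is between genotypes in this medium, and untreated cells were not analysed here. The labels do not state the strain, age or number of mice, how Bmal1 was deleted, or whether replicates came from separate cultures, and the p-values below thus speak only for the scatter among these 6 libraries, possibly technical. The libraries held 38074293, 32503525 and 33738702 reads in genes in Bmal1 KO and 40850549, 44657471 and 39129037 in WT.

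All 6 libraries carry the same batch label. Bmal1 mRNA, listed as Arntl, stood at 1036, 941 and 1036 normalized counts in Bmal1 KO, against 529, 619 and 590.4 in WT. It was thus 1.73-fold higher where a knockout is stated, and gene-level counts cannot show whether an exon is missing, so "Bmal1 KO" below means the library labelled Bmal1 KO. Sex-linked RNA separated the labels too. Xist was at 3842 to 3887 in Bmal1 KO libraries and 12.4 to 89.9 in WT libraries, and Y-linked Ddx3y was at 68.5 to 82.5 in Bmal1 KO and 2784 to 3314 in WT, so genotype label and sex-linked expression cannot be told apart. All 8 smooth muscle markers examined were detected in every library and were higher in Bmal1 KO, summing to 100061 to 108387, against 28599 to 32728 in WT. Markers of bone cells, the usual source of FGF23, were low. Ibsp was at 0 to 1.02 and Sost at 0 to 2.04 over all libraries, Bglap was at 0 in Bmal1 KO and at 3.68 to 6.42 in WT, and Sp7 was at 66.2 to 142 in Bmal1 KO and 21.2 to 22.4 in WT. Of 5 kidney tubule markers Umod, Slc34a1 and Aqp2 were at 0 to 4.15 over all libraries, while Lrp2 fell to 53.7 to 75.5 in Bmal1 KO, against 203 to 285 in WT, and Slc12a1 rose to 68.3 to 78.8 in Bmal1 KO, against 18.4 to 36.7 in WT. Of 5 hepatocyte markers only Ttr was abundant, Alb being at 0 to 14.4.

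Transcripts that mark neural tissue were present in all 6 libraries and differed with the label. Of 27 markers of neurons, astrocytes, oligodendrocytes and choroid plexus, picked after values had been seen, all 27 were higher in each Bmal1 KO library than in any WT library. The 10 neuronal markers summed to 16829, 27407 and 28237 normalized counts in Bmal1 KO replicates 1, 2 and 3, against 5026, 1681 and 4600.3 in WT replicates 1, 2 and 3. WT replicate 2 was the lowest library for 24 of the 27. The synaptic gene Snap25 was at 2951 to 5624 in Bmal1 KO and 282 to 1079.5 in WT. These values are given again beside the genes that moved in the same way, and their part in those results was not tested.

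The promoters of the pair of hormone genes are shown because, of the 10 members, these had the largest fold between the groups. Each run is the 250 bases before the transcription start, 5′ to 3′ on the gene's strand, from RefSeq (GRCm38.p6, the same assembly as mm10). Capitals mark motifs that a search found.
Fgf21: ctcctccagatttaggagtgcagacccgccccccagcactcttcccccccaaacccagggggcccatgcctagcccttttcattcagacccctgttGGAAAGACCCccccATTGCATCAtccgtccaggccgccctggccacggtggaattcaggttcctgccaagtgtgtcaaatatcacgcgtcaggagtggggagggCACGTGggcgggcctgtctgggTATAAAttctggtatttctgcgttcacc
Fgf23: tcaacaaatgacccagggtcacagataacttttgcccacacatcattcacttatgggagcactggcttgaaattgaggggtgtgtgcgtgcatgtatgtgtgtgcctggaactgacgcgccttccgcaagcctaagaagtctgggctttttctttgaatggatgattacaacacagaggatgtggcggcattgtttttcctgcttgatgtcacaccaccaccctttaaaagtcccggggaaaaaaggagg

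The Fgf21 run is chr7:45615491-45615740 on the minus strand and the Fgf23 run is chr6:127072652-127072901 on the plus strand. The search covered both strands for 5 motifs, and no matches overlapped. They were the E-box CACGTG, which CLOCK and BMAL1 can bind, the ATF4 element TGATGNAAN, the AP-1 motif TGANTCA, an NF-kB motif of 10 letters and the TATA box TATAAA. Fgf21 held an E-box at positions -50 to -45 from the start, an ATF4 element on the other strand at -140 to -132 (ATTGCATCA), an NF-kB motif on the other strand at -154 to -145 (GGAAAGACCC) and a TATA box at -28 to -23. Among 32851 mouse promoter windows of this length, 6.02% held the E-box, 3.44% the ATF4 element, 1.41% the NF-kB motif, 12.4% the TATA box and 6.75% the AP-1 motif. Fgf23 held none of the 5. Of the 9 member genes with a window in the table (10 windows), Fgf21 alone held any. A match describes letters and not a bound site.

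Both hormone genes had very few reads in the Bmal1 KO libraries. Fgf23 (chromosome 6, 127072902 to 127082296) had 3.06, 5.99 and 9.14 normalized counts in Bmal1 KO, against 1432, 1909.7 and 1736 in WT. The groups stood far apart and the WT libraries were close to one another. Means were 6.06 ± 3.04 in Bmal1 KO and 1692 ± 242 in WT (SD, n = 3 each), a 279-fold lower level (log2 difference -7.99, SE 0.33). The Bmal1 KO value rested on 16 reads in the 3 libraries together, and the 95% exact counting interval of the ratio of reads was 176 to 500.5. Intervals cover counting error only. Here, as in all bulk RNA, fewer cells that express a gene and less RNA per cell cannot be told apart.

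Fgf21 (chromosome 7, 45613890 to 45615490) had 5.10, 0 and 10.3 normalized counts in Bmal1 KO, against 685, 544 and 505 in WT. The highest Bmal1 KO library was still far below the lowest WT library. Means were 5.13 ± 5.14 in Bmal1 KO and 578 ± 94.9 in WT (SD, n = 3 each), or 113-fold lower (log2 difference -7.13, SE 0.79). With 14 reads in Bmal1 KO, none of them in replicate 2, the counting interval of the ratio of reads ran from 65.9 to 203. The fold was 75.2 without Bmal1 KO replicate 2 and 227 without replicate 3. A level at least 10-fold lower in Bmal1 KO was found for 1.08% of the 16086 genes tested, and one at least 100-fold lower for 0.18%. Both hormone genes are in each group, and no other member is in either. The members were chosen on this same contrast, so nothing is read from such shares here or below.

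**Figure D1:**
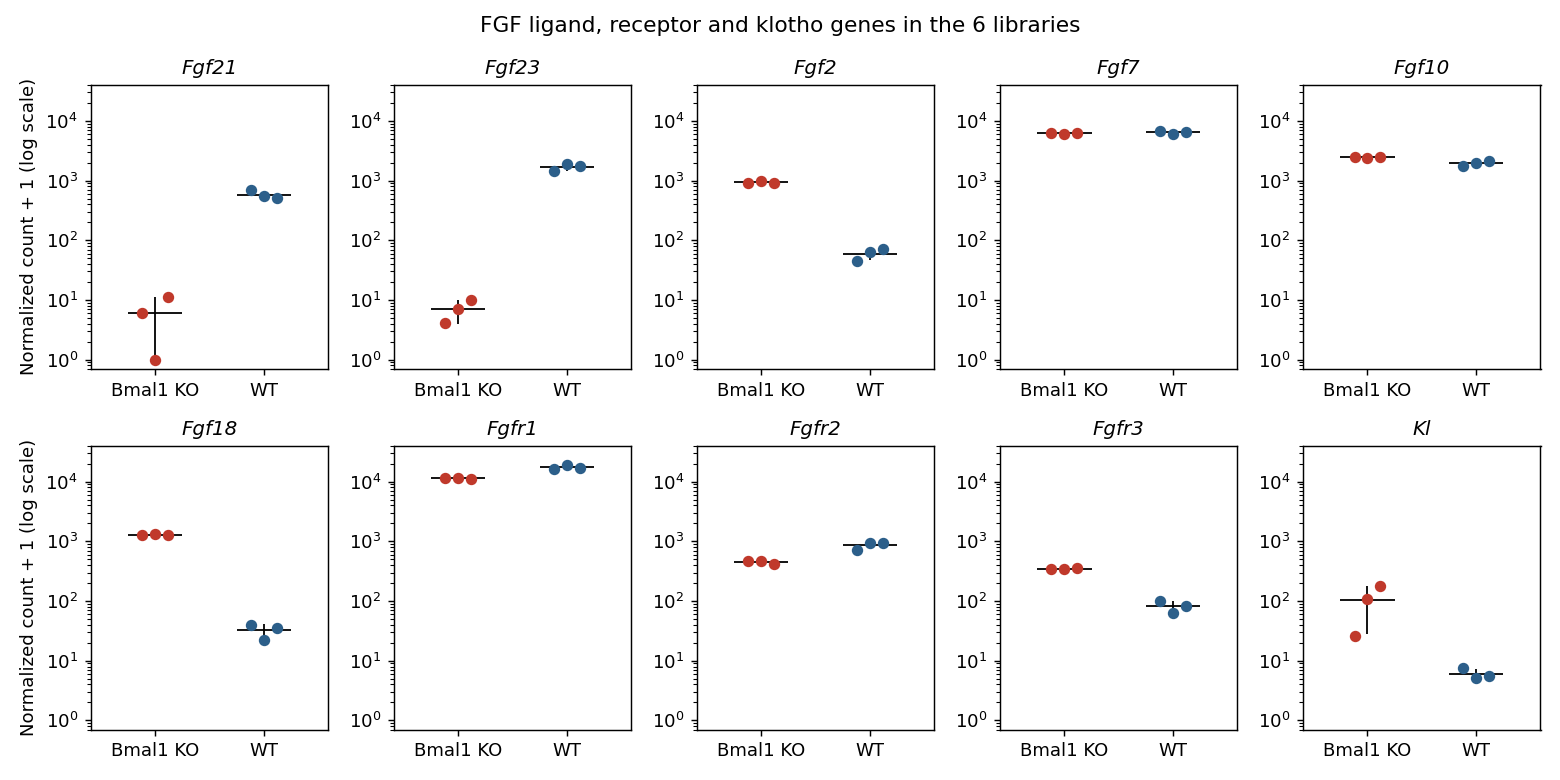
Normalized count plus 1 (log scale) of each of the 10 genes in the 3 Bmal1 KO libraries (red, left) and the 3 WT libraries (blue, right); bars give the mean and vertical lines the SD of 3 libraries. Fgf21 and Fgf23 sit at 0 to 10.3 normalized counts in Bmal1 KO and 505 to 1909.7 in WT, Fgf18 and Fgf2 show the opposite order, and only Fgf7 overlaps between the groups.

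The genes whose profile over the 6 libraries lay nearest to these hormones were compared by the root mean square difference of mean-centred log2 values, over the 12087 genes that averaged 100 or more and have a symbol other than a predicted-gene name. For Fgf23 they were the acute-phase gene Saa3 (0.60), the chemokine gene Cxcl1 (0.68), the inducible nitric oxide synthase gene Nos2 (0.69), the ATP-gated channel gene P2rx3 (0.72) and the chemokine gene Cxcl15 (0.81). For Fgf21 they were the transcription factor gene Trp63 (0.60), Cxcl15 (1.04), the X-linked gene Xlr3b (1.10), Saa3 (1.11) and P2rx3 (1.14). Saa3, P2rx3 and Cxcl15 stood on both lists. Only 0.18% of genes tested were at least 100-fold lower in Bmal1 KO, as both hormone genes were. The lists thus drew on few genes, and nothing is read from the shared names. Nos2 had 3.06, 5.99 and 3.43 normalized counts in Bmal1 KO, against 2454, 3192 and 2739 in WT. Trp63 had 4.08, 1.20 and 5.71 in Bmal1 KO, against 488, 490.1 and 452 in WT. Xlr3b has close copies, so its counts are uncertain.

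Genes beside the hormone genes on their chromosomes moved in both directions, by at most 8.13-fold, in Hsd17b14, which had 5 reads in Bmal1 KO. The 2 nearest genes on each side that passed the low-value filter were tested with limma on log2 values, with Benjamini-Hochberg adjustment over all genes tested and a threshold of 0.05. By that test 71.1% of the 16086 genes tested were called, and 6 of the 8 neighbours were. Fut1, a fucosyltransferase gene 2116 bases from Fgf21, fell to 5.32 ± 5.25 in Bmal1 KO, against 25.8 ± 8.82 in WT (adjusted p = 0.0115). On the other side Bcat2, a branched-chain amino acid transaminase gene, fell 1.68-fold (adjusted p = 0.000258), and Hsd17b14, a steroid dehydrogenase gene, fell to 1.74 ± 2.10 in Bmal1 KO, against 14.1 ± 1.48 in WT (adjusted p = 0.00549). Hsd17b14 passed the low-value filter through the WT libraries alone. The 6 neighbours called include it, but nothing is read from its own call. Rasip1, which encodes a partner of RAS-family proteins, rose 2.30-fold (adjusted p = 0.000614). Beside Fgf23, Tigar, a fructose bisphosphatase gene 2820 bases away, fell to 601 ± 18.7 in Bmal1 KO, against 1131 ± 66.0 in WT (SD, n = 3 each, limma adjusted p = 3.03e-05). D6Wsu163e rose 1.31-fold (adjusted p = 0.00108), the DNA repair gene Rad51ap1 was at 378 ± 54.3 in Bmal1 KO and 436 ± 24.3 in WT (adjusted p = 0.169), and the cyclin gene Ccnd2 was at 19667 ± 257 in Bmal1 KO and 21426 ± 1840.1 in WT (adjusted p = 0.202, and 0.0178 without WT replicate 1).

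Of the locally acting ligands, Fgf18 and Fgf2 were far higher in Bmal1 KO, Fgf10 was slightly higher, and Fgf7 overlapped between the groups. Fgf18 (chromosome 11, 33116970 to 33147400), known for its role in bone and cartilage growth, had 1259.5, 1332 and 1295 normalized counts in Bmal1 KO, against 38.5, 21.6 and 34.1 in WT. It was 41.3-fold higher (log2 difference 5.36, SE 0.21), and the Bmal1 KO libraries varied by 2.80% (SD over mean). A level at least 10-fold higher in Bmal1 KO was found for 2.77% of genes tested, and for 3 of the 10 members, namely Fgf18, Kl and Fgf2. In WT Fgf18 was lowest in replicate 2, the library lowest in neuronal markers too, and their part was not tested.

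Fgf2 (chromosome 3, 37348477 to 37410106), basic FGF, a mitogen of smooth muscle, had 925, 974 and 902 normalized counts in Bmal1 KO, against 44.0, 63.0 and 69.1 in WT. The ratio of means was 15.9 (log2 difference 3.99, SE 0.18). No Bmal1 KO library came near the WT range. Fgf2 shares 5125 bases with Nudt6, its antisense gene, and Nudt6, named after its values were seen, had 1813, 1848 and 1996 normalized counts in Bmal1 KO, against 255, 226 and 245 in WT (log2 difference 2.96, limma adjusted p = 1.23e-07). The kit was a stranded one, but no source used here gives the strand setting of the counting, so reads of Fgf2 and Nudt6 in the shared stretch cannot be assigned with certainty and the Fgf2 level is uncertain.

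Fgf7 and Fgf10 encode related factors that mesenchymal cells make for epithelia and that bind the IIIb form of FGFR2. Fgf7 (chromosome 2, 126034658 to 126091185) had 6304, 6063 and 6286 normalized counts in Bmal1 KO, against 6837, 6080.0 and 6585 in WT. The groups overlapped, with a log2 difference of -0.063 (SE 0.064). Fgf10 (chromosome 13, 118714699 to 118792573) had 2507, 2414 and 2453 in Bmal1 KO, against 1771, 1959 and 2097 in WT. It was 1.27-fold higher, and the groups did not overlap. Groups without overlap were the rule in these data, at 76.7% of genes tested (38.5% higher and 38.2% lower in Bmal1 KO). Of the 10 members 5 were higher without overlap, 4 were lower without overlap, and Fgf7 overlapped.

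Levels of different genes can be set side by side only per length, so the normalized counts were divided by the length of the gene's exons in GENCODE M21. In Bmal1 KO the order was Fgf7 (1978 ± 42.7 per kb), Fgf18 (1092 ± 30.6), Fgf10 (597 ± 11.4), Fgf2 (143 ± 5.56), Fgf21 (5.39 ± 5.41) and Fgf23 (3.34 ± 1.68). In WT it was Fgf7 (2068 ± 123), Fgf23 (933 ± 133), Fgf21 (608 ± 99.8), Fgf10 (472 ± 39.8), Fgf18 (26.4 ± 7.41) and Fgf2 (6.75 to 10.6 over the libraries). Neighbours in these orders did not overlap between libraries, apart from Fgf21 and Fgf23 in Bmal1 KO. Summed over the 6 ligands, the level was 3818 ± 26.1 per kb in Bmal1 KO and 4116 ± 47.6 in WT. Fgf7 made up 51.8% ± 0.80 of that sum in Bmal1 KO and 50.2% ± 2.41 in WT. The share of Fgf18 was 28.6% ± 0.94 in Bmal1 KO and 0.64% ± 0.17 in WT. That of Fgf23 was 0.087% ± 0.044 in Bmal1 KO and 22.7% ± 3.48 in WT, and that of Fgf21 was 0.14% ± 0.14 in Bmal1 KO and 14.8% ± 2.32 in WT.

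**Figure D2:**
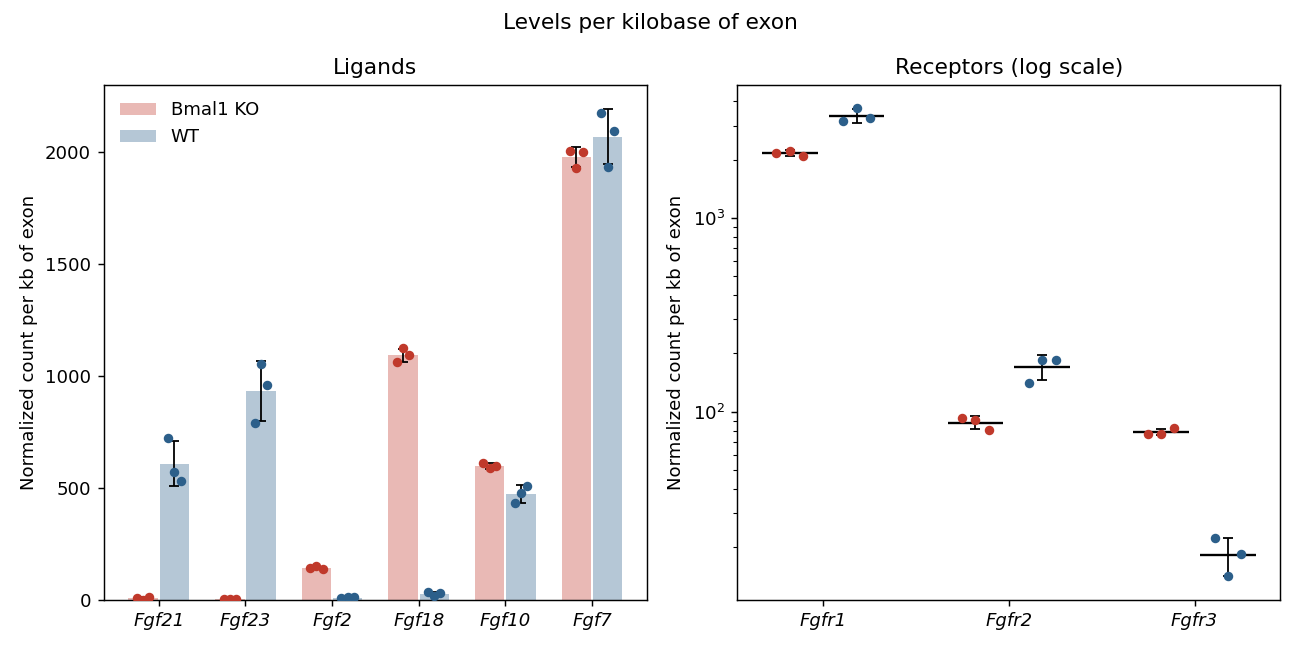
Normalized count per kb of exon for the 6 ligand genes (left, linear axis from 0, bars are means) and the 3 receptor genes (right, log axis, horizontal lines are means) in Bmal1 KO (red) and WT (blue); points are libraries and error bars the SD of 3. Fgf7 is near 2000 per kb in both groups (1978 and 2068), and Fgfr1 is the most abundant receptor in both.

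Per kb, Fgfr1 was the most abundant receptor gene in both groups. Fgfr1 (chromosome 8, 25518759 to 25575718) had 11335, 11639.6 and 10963 normalized counts in Bmal1 KO, against 16468, 19230.1 and 17048 in WT. It was 1.55-fold lower in Bmal1 KO (log2 difference -0.63, SE 0.076). Fgfr2 (chromosome 7, 130162451 to 130266808) had 476, 462 and 410.1 in Bmal1 KO, against 724, 941 and 949 in WT, or 1.94-fold lower (log2 difference -0.95, SE 0.13). Both receptors were lower in every Bmal1 KO library than in any WT library. Gene-level counts cannot tell the IIIb from the IIIc splice forms, which bind different ligands.

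Fgfr3 (chromosome 5, 33721724 to 33737068), whose product restrains growth of cartilage, went the other way. It had 339, 337 and 362 normalized counts in Bmal1 KO, against 98.1, 62.2 and 81.0 in WT, a 4.30-fold higher level (log2 difference 2.11, SE 0.19). In WT it was lowest in replicate 2, as were the neuronal markers, and its Bmal1 KO libraries were level with one another. The part of neural transcripts in the Fgfr3 result was not tested. Per kb, the 3 receptors summed to 2336 ± 67.4 in Bmal1 KO and 3560.1 ± 292 in WT. Fgfr1 held 92.9% ± 0.16 of this in Bmal1 KO and 94.7% ± 0.50 in WT. Fgfr2 held 3.76% ± 0.21 in Bmal1 KO and 4.78% ± 0.54 in WT, and Fgfr3 held 3.37% ± 0.23 in Bmal1 KO and 0.52% ± 0.15 in WT. Fgfr2 and Fgfr3 overlapped per kb in Bmal1 KO.

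Kl, which encodes alpha-klotho (chromosome 5, 150952607 to 150993817), differed widely among the Bmal1 KO libraries. It had 24.5, 108 and 176 normalized counts in Bmal1 KO replicates 1, 2 and 3, against 6.42, 4.15 and 4.60 in WT. All Bmal1 KO libraries lay above all WT libraries, but their SD was 73.8% of their mean. The ratio of means was 20.3 (log2 difference 3.72, SE 0.67), it was 13.1 without Bmal1 KO replicate 3, and the counting interval of the ratio of reads, with 17 reads in WT, ran from 12.1 to 34.5. Kl is also a gene of the choroid plexus, the epithelium that makes cerebrospinal fluid, and 7 markers of that tissue summed to 1530 in Bmal1 KO replicate 1, 5464 in replicate 2 and 7766 in replicate 3, against 367, 133 and 398 in WT. The gene nearest to Kl in profile was the choroid plexus marker Ttr (root mean square difference 0.50), with 1399, 5190.4 and 7423 in Bmal1 KO and 337, 109 and 366 in WT, and the next was Slc17a7 (0.59), a marker of excitatory neurons. Both were named after their values were seen. The part of these transcripts in the Kl result was not tested. Even in Bmal1 KO, Kl stood at 20.1 ± 14.8 per kb, against 2169 ± 65.0 for Fgfr1 in the same libraries.

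**Figure D3:**
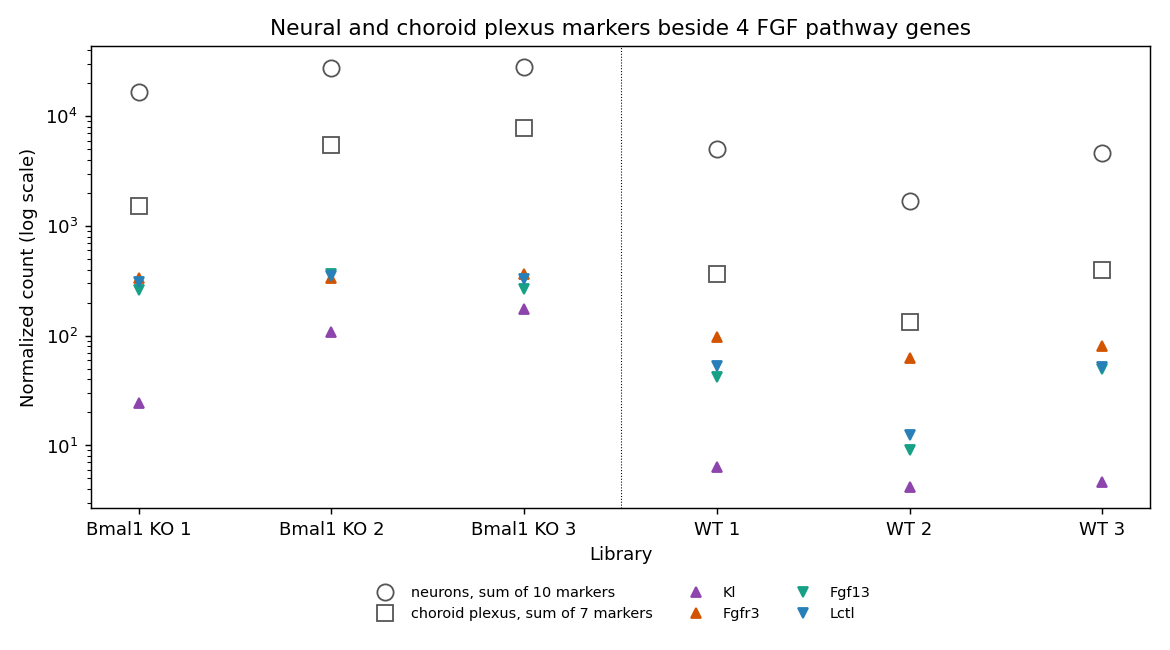
Normalized counts (log scale) in each library of summed neuronal markers (circles) and choroid plexus markers (squares), of the members Kl and Fgfr3 (upward triangles) and of Fgf13 and Lctl (downward triangles). The 2 marker sums and all 4 genes are higher in the Bmal1 KO libraries at left, Kl and the choroid plexus sum are both lowest in replicate 1 of that group (24.5 and 1530), and WT replicate 2 is the lowest library for each of the 6.

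The rest of the FGF pathway was covered by 7 lists of 122 genes that are not members, of which 105 passed the low-value filter. By limma, 46 of the 105 were higher and 34 lower in Bmal1 KO, and 25 did not pass. The 46 include Fgfr4, Hs3st3a1 and Creb3l3, which passed the low-value filter through the Bmal1 KO libraries alone. Over all genes tested 36.2% were higher and 34.9% lower, with a median log2 difference of -0.012, against 0.19 over these 105.

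Among other FGF ligand genes, those that changed were higher in Bmal1 KO. Of 16, 7 were tested, of which 5 rose and the other 2 missed the threshold, and the median log2 difference was 2.48. Fgf1, acidic FGF, rose to 163 ± 16.9 in Bmal1 KO, against 24.3 ± 8.20 in WT (SD, n = 3 each, limma adjusted p = 8.86e-05), and Fgf9 rose 3.09-fold (adjusted p = 0.00835). Fgf12, Fgf13 and Fgf14 encode FGF homologues that stay inside excitable cells and modulate sodium channels. They rose 5.76-fold, 8.88-fold and 5.47-fold (adjusted p = 0.0037, 0.000973 and 0.000808). Fgf13 had 263, 364 and 269.6 normalized counts in Bmal1 KO, against 42.2, 9.12 and 49.7 in WT. The 5 risen genes were lowest of all in WT replicate 2, as the neuronal markers were, whose part was not tested. Fgf11 was at 42.9 ± 6.97 in Bmal1 KO and 42.6 ± 9.22 in WT (adjusted p = 0.946), Fgf22 was at 14.0 ± 5.75 in Bmal1 KO and 11.1 ± 3.12 in WT (adjusted p = 0.564), and Fgf4 and Fgf6 had no reads in any library.

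Of 9 other receptor, klotho and receptor-binding genes, 8 were tested. There were 6 that rose and none that fell, and the median log2 difference was 0.97. Lctl, Flrt1, Flrt3 and Klb were lowest of all in WT replicate 2, as the neuronal markers were. Flrt1 was there by little, at 72.5, 68.8 and 73.7 in WT replicates 1, 2 and 3. The part of neural transcripts in this list was not tested. Klb, the partner FGF21 needs, stood at 13.4 ± 6.66 in Bmal1 KO and 8.40 ± 4.07 in WT (adjusted p = 0.328). Lctl, another klotho family gene, rose to 331 ± 22.0, against 39.1 ± 23.1 in WT (8.47-fold, adjusted p = 0.000613), and Fgfr4 rose to 29.9 ± 4.31, against 4.41 ± 2.34 (adjusted p = 0.00119). Fgfr4 passed the low-value filter through the Bmal1 KO libraries alone. The 6 that rose and the median include it, but nothing is read from its own call. Fgfrl1, a receptor without a kinase domain, was at 1243 ± 15.2 in Bmal1 KO and 1201.5 ± 77.4 in WT (adjusted p = 0.54). Flrt2, which encodes a membrane protein of a family that binds FGF receptors, rose by 0.58 on the log2 scale (adjusted p = 0.000253), and its relatives Flrt1 and Flrt3 rose 2.62-fold and 2.97-fold (adjusted p = 0.000637 and 0.00421). Fgfbp3, a carrier of FGFs in the matrix, had a log2 difference of 0.40 (adjusted p = 0.041). It missed the threshold when Bmal1 KO replicate 2 or 3, or WT replicate 2 or 3, was left out (adjusted p = 0.107, 0.139, 0.082 and 0.104), and with the replicate number as a block (adjusted p = 0.0696). The call was also lost with TMM scaling (adjusted p = 0.0691), with edgeR (adjusted p = 0.0501) and without the low-value filter (adjusted p = 0.051).

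Enzymes that build and trim heparan sulfate went in both directions. Of 20 tested, 8 rose and 5 fell, and the median log2 difference was 0.012. Hs6st2, which adds 6-O-sulfate to the chains, fell 9.41-fold to 629 ± 27.9 in Bmal1 KO, against 5919 ± 167 in WT (SD, n = 3 each, limma adjusted p = 1.91e-08). Sulf1, which removes 6-O-sulfate at the cell surface, rose 5.61-fold to 15677 ± 536, against 2794 ± 388 (adjusted p = 5.46e-07). The heparanase gene Hpse fell 4.73-fold (adjusted p = 1.93e-07), and the sulfotransferase gene Hs3st3a1 rose to 107 ± 10.1, against 4.69 ± 2.49 (adjusted p = 4.82e-05). Hs3st3a1 passed the low-value filter through the Bmal1 KO libraries alone. The 8 that rose include it, but nothing is read from its own call.

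Adaptors and kinases between the receptors and ERK also went in both directions. Of 23 tested, 10 rose and 8 fell, with a median of -0.028. Cblb, a ubiquitin ligase gene, rose 4.55-fold (adjusted p = 4.45e-06), and Gab2, a docking protein gene, rose 2.13-fold (adjusted p = 5.46e-05). Map2k1, which encodes the ERK kinase MEK1, fell 1.42-fold (adjusted p = 8.47e-05).

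Target and feedback genes of FGF-ERK signalling split. Of 18 tested, 7 rose and 9 fell, with a median of 0.024. These genes also answer to other growth factors. Spry1, a feedback inhibitor of receptor tyrosine kinases, fell 7.14-fold to 211 ± 19.3 in Bmal1 KO, against 1508 ± 72.2 in WT (SD, n = 3 each, limma adjusted p = 2.67e-07). Myc fell 4.68-fold (adjusted p = 1.01e-07) and Phlda1, a gene induced by growth factors, 3.96-fold (adjusted p = 4.79e-07). The cyclin D1 gene Ccnd1 rose 3.13-fold (adjusted p = 5.56e-07). The next 4, picked after their values were seen, are widely used readouts of FGF signalling. Etv5 rose 2.27-fold and Etv4 fell 1.74-fold (adjusted p = 5.25e-05 and 6.8e-05), and Dusp6 and Spry4 had log2 differences of 0.33 and 0.42 (adjusted p = 0.0176 and 0.0244). Dusp6 missed the threshold when Bmal1 KO replicate 2 or 3 was left out (adjusted p = 0.0682 and 0.0688), and Spry4 when replicate 1 or 2 of that group was (adjusted p = 0.062 and 0.087).

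**Figure D4:**
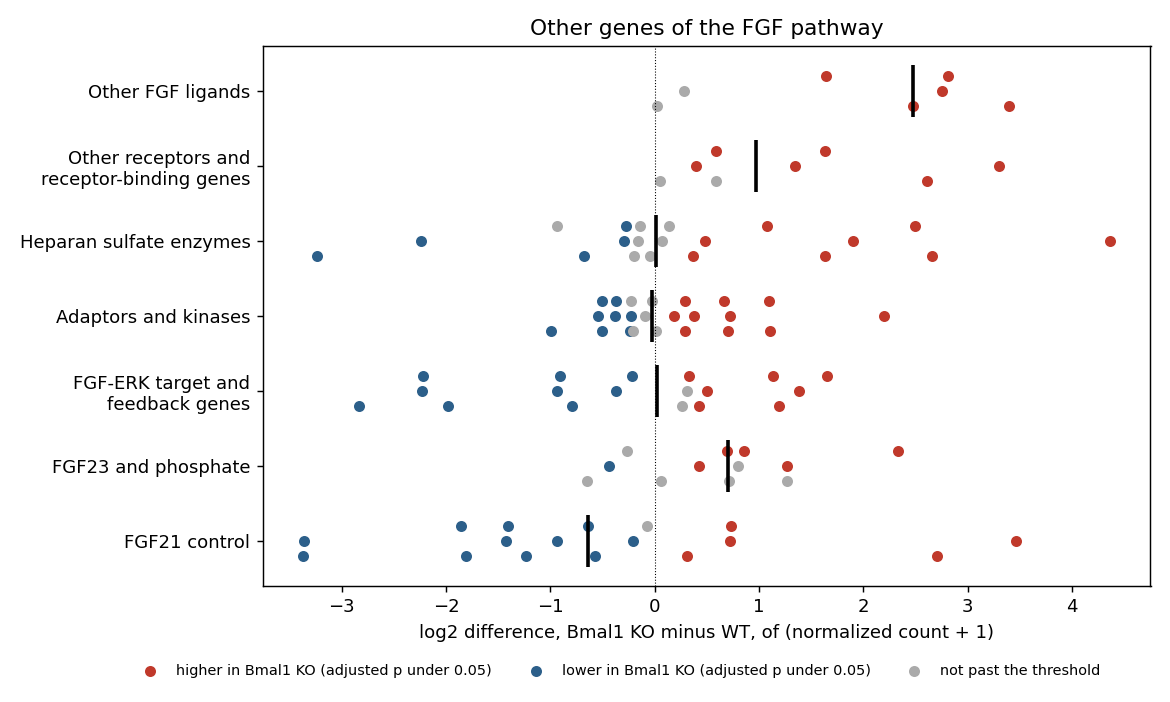
Log2 difference (Bmal1 KO minus WT, of normalized count plus 1) of each tested gene in 7 lists of FGF pathway genes outside the members; red and blue points passed the limma threshold, grey points did not, and black bars are list medians. The medians run from -0.64 for genes of FGF21 control to 2.48 for the other ligands, and the heparan sulfate, adaptor and target lists spread to both sides of 0.

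Of 17 genes that modify, cleave or answer to FGF23, 12 were tested. Of these 5 rose and 1 fell, where 36.2% of all genes tested were higher and 34.9% lower, and the median log2 difference was 0.70. Enpp1, 1 of the 5 and named after its values were seen, lost its limma call with TMM scaling (adjusted p = 0.0521). It also lost it without Bmal1 KO replicate 2 or 3 (adjusted p = 0.0576 and 0.0989). The phosphate transporter gene Slc20a1 rose 1.62-fold (adjusted p = 8.41e-05), the vitamin D receptor gene Vdr 1.81-fold (adjusted p = 0.000124), the protease gene Pcsk5 5.52-fold (adjusted p = 0.000235) and the parathyroid hormone receptor gene Pth1r 2.42-fold (adjusted p = 0.00152). Galnt3, Fam20c and Furin, whose products act on FGF23 protein itself, were picked after their values were seen and did not pass. Galnt3, which shields it from cleavage, was at 24.1 ± 0.27 in Bmal1 KO and 14.4 ± 6.77 in WT (adjusted p = 0.0891, and 0.0245 without WT replicate 1). Fam20c, which phosphorylates it, was at 3413 ± 194 in Bmal1 KO and 3285 ± 328 in WT (adjusted p = 0.556). The protease gene Furin was at 5881 ± 100.5 in Bmal1 KO and 7124 ± 1099.9 in WT (adjusted p = 0.0532), and it passed as lower without WT replicate 1 (adjusted p = 0.0022), with the replicate block (adjusted p = 0.033), with TMM scaling (adjusted p = 0.0307), with edgeR (adjusted p = 0.0376) and with DESeq2 (adjusted p = 0.0317). Slc34a1 and Cyp24a1, targets of FGF23 in kidney, were at 0 to 1.84 and 0 to 2.28 over all libraries.

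The FGF21 list held its regulators and the stress genes that share the transcription factor ATF4 with it. Of 17 tested, 11 fell and 5 rose, and the median log2 difference was -0.64. Atf4 and the stress genes all fell, while the other regulators split. Pparg, Ppargc1a, Rxra and Creb3l3 were called higher, Ppara, Mlxipl and Nfe2l2 were called lower, and Rora was not called. The calls of Ppargc1a, Ppara and Mlxipl were lost when some single libraries were left out. Atf4 itself fell 3.52-fold to 4117 ± 48.2 in Bmal1 KO, against 14478 ± 563 in WT (SD, n = 3 each, limma adjusted p = 1.59e-07). Its targets Trib3, Chac1 and Psat1 fell 10.4-fold, 10.3-fold and 2.66-fold (adjusted p = 1.05e-07, 1.98e-07 and 8.63e-07). These falls were smaller than the 113-fold lower level of Fgf21, which rested on 14 reads in Bmal1 KO. The part of ATF4 in the Fgf21 result was not tested. Among the genes that rose, Fap, whose protease inactivates FGF21 in humans, was 11.6-fold higher (adjusted p = 5.68e-06), and Creb3l3, a liver regulator of Fgf21, 7.16-fold higher at 56.6 ± 10.9, against 7.91 ± 2.23 in WT (adjusted p = 0.000185). Fap, Creb3l3 and the other regulators named were picked after their values were seen. Creb3l3 passed the low-value filter through the Bmal1 KO libraries alone. The 5 that rose include it, but nothing is read from its own call.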

How the data were processed

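Messenger RNA was sequenced in 6 libraries with a stranded kit. Per the submitters' processing notes the tools were Trimmomatic, HISAT2 and featureCounts and the build mm10, and no source used here gives versions, annotation or strand setting. Sample titles gave the groups and replicate numbers. The authors' deposited table gives 27179 NCBI Gene IDs with a normalized signal per library, and 0 value columns stayed unmapped. In that deposited signal 100% of non-zero values were whole multiples of 1 step per library (tolerance 0.01), which gave back 32503525 to 44657471 whole reads a library. The steps equalled median-ratio size factors, a scaling that assumes that most genes do not differ.

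Differences are Bmal1 KO minus WT. Counts are normalized counts and ± is the SD. The test was limma 3.58.1 on log2(value + 1), with group as the only term and a trended prior variance, over 16086 genes with at least 10 in at least 3 libraries, adjusted by Benjamini-Hochberg, threshold 0.05. It understates changes of low genes. Folds are ratios of means. edgeR 4.0.16 and DESeq2 1.42.0 on recovered reads, other scalings, pseudocounts and filters, a replicate block and leaving out each library were alternatives, and edgeR called 11479 genes. Fits were tested on simulated data. Replicates of a group differed by more than sampling noise.

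The members and lists were chosen with earlier results of these data known. Named by rule were the members, Arntl, other ligand and receptor genes past the filter, up to 4 genes a list by adjusted p (1 such gene is not reported here), the hormone genes' neighbours and nearest profiles. Coordinates, promoters and names are from RefSeq (25275 IDs matched), exon lengths from GENCODE M21. Fgfr1 had no promoter entry.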

Additional observations from a re-analysis of the deposited data

How the results depend on the processing

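Under the alternatives the FGF pathway list of 105 tested genes kept each count within 1.5 times: 46 higher and 34 lower as reported, 35 to 45 higher and 31 to 40 lower when 1 library was left out, 42 and 40 with TMM scaling, 48 and 33 with upper-quartile scaling, 33 and 33 of the 84 genes left when a mean of at least 100 was required, 43 and 38 with edgeR, and 46 and 35 with DESeq2. The count over all genes was 11435 and ran from 10283 to 11692 without 1 library. Replicate numbers did not pair the libraries (correlations of same-numbered deviations -0.0045, 0.026 and 0.084), and the fit with the number as a block gave 45 higher and 37 lower and called 11556 genes in all. Of the 8 neighbours of the hormone genes, 6 were called, and 3 with a mean of at least 100 required, which leaves Fut1, Hsd17b14 and Rasip1 untested. No called pathway gene changed sign, but 8 that were not called did in their log2 difference. By scaling or tool they were Fgf11 (TMM -0.038, edgeR -0.025), Fgfrl1 (TMM -0.0092), Fam20c (TMM -0.0022), Hras (TMM -0.051, edgeR -0.030), and Ndst1 and Shc1 (upper-quartile 0.0083 and 0.025). With 1 library left out, Fgf11 ran from -0.15 to 0.17, Hras from -0.073 to 0.13, Fgf22 from -0.0019 to 0.53, Ndst1 from -0.27 to 0.12, Shc1 from -0.11 to 0.032 and Rora from -0.23 to 0.029, and the cause was not tested. The Fgf23 log2 difference was -7.29 with a pseudocount of 5, by construction, since the Bmal1 KO counts are near that size. Low reads limit the Fgf21, Fgf23 and Kl ratios.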

Other observations

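Markers of other cell types were present beside those of smooth muscle and differed with the label. Over all genes tested, 36.2% were called higher in Bmal1 KO by limma and 34.9% lower. Of 5 endothelial markers 4 rose by limma, and the list summed to 715 to 921 normalized counts in Bmal1 KO libraries and 316 to 434 in WT libraries. Pecam1, an adhesion gene of endothelium, had 247, 218 and 327 in Bmal1 KO, against 32.1, 14.1 and 58.0 in WT. Of 5 macrophage markers 4 rose and Cd68 fell, with sums of 1138 to 1244 in Bmal1 KO and 558 to 671 in WT. Itgam, 1 of the 4, was at 2.75 to 9.21 in WT and passed the low-value filter through the Bmal1 KO libraries alone. Nothing is read from its call. Csf1r, the macrophage growth factor receptor gene, had 877, 897 and 906 in Bmal1 KO, against 216, 184 and 249.6 in WT. Of 6 epithelial markers 3 rose, with Krt8 at 2191, 757 and 4390.0 in Bmal1 KO, against 514, 134 and 809 in WT. Krt8 overlapped between the groups, and its call was lost when Bmal1 KO replicate 1 or 3 or WT replicate 2 was left out (limma adjusted p = 0.0663, 0.0901 and 0.0547). Among 6 fibroblast markers, of which 5 were tested, 3 rose and 2 fell. Ly6a rose 4.98-fold and Dpt 2.09-fold (limma adjusted p = 4.29e-07 and 6.15e-05), and Lum fell 8.38-fold (adjusted p = 9.41e-07). The call of Pdgfra as higher was lost with TMM scaling (adjusted p = 0.119), with edgeR (adjusted p = 0.0803) and without any 1 of the Bmal1 KO libraries (adjusted p = 0.0637 to 0.129). That of Pi16 as lower was lost with DESeq2 (adjusted p = 0.0587) and when Bmal1 KO replicate 1 or 2 or WT replicate 1 or 3 was left out (adjusted p = 0.0618 to 0.0759). The 5 kidney tubule markers together summed to 134 to 149.9 in Bmal1 KO and 244 to 310.1 in WT. The markers named here were picked after their values were seen, and the part of these cells in the FGF results was not tested.

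The genes nearest to Fgf23 in profile were drawn only from genes that reached a minimum mean over all libraries. They were ranked by likeness to Fgf23, which was far lower in Bmal1 KO. A high level in WT was thus built into their choice, and nothing is read from it. The levels of Saa3 and Cxcl1 are given as description only. Saa3 had 261, 179 and 207 normalized counts in Bmal1 KO, against 82903, 56065 and 58069 in WT. Cxcl1 had 79.5, 64.7 and 50.3 in Bmal1 KO, against 26260.4, 28822 and 26416 in WT.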
